A study of Mus musculus with 2 samples.

Results

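The gut wall transcription factor genes Foxf1, Foxf2, Foxl1, Nkx2-3, Tcf21, Nkx3-2, Barx1 and Nkx2-5, called the members below, were followed in the intestine of E16.5 mouse embryos. They were chosen by name, as factors known from the mesenchyme of the intestine, the stomach and the pylorus. No rule on their values was used, but earlier results of these data were known when they were chosen. All 8 were found among the 43346 gene identifiers of the gene tables and among the 21474 protein-coding genes. The series holds 2 libraries of 1 group, replicate 1 and replicate 2. Each was prepared from 10 ng of RNA longer than 200 nt, taken from healthy B6NCrl embryos at 16.5 days with the sexes pooled. The pool of replicate 2 came from 41 embryos, the size of the other pool is not stated in the labels used here, and the pools are separate biosamples under the same donor identifier. No stomach, pylorus or segment of intestine was sampled on its own, so the region attached to each gene comes from background and not from these libraries.

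The mesenchyme of the gut is the layer of fibroblasts, smooth muscle and subepithelial cells that surrounds the epithelium. It receives hedgehog proteins from the epithelium and answers with transcription factors and with BMP, Wnt and Wnt-inhibiting signals that act back on the epithelium. Foxf1 and Foxf2 are forkhead factors of this layer and known hedgehog targets, and Foxl1 marks the subepithelial cells that lie next to the epithelium. Nkx2-3 is a homeobox factor of the intestinal and splenic mesenchyme. Barx1 is the homeobox factor of the stomach mesenchyme, Nkx3-2 (also called Bapx1) marks the hind stomach and the splenic anlage, and Nkx2-5, best known from the heart, marks the pyloric sphincter. Tcf21 is a basic helix-loop-helix factor of visceral mesenchyme, known from lung, kidney, spleen, gonad and the covering of the heart.

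Pairs of related members are shown here by a stretch of the box that encodes their DNA-binding domain, because the closeness of these stretches bears on whether reads can be told apart. Sequences come from the GENCODE M21 transcripts, lie in coding exons and are given 5′ to 3′ on the strand of the gene. Capitals mark the bases that are identical in both genes of a pair. The stretch of the forkhead box spans 101 bases, of which 95 (94.1%) were identical in Foxf1 and Foxf2. In mm10 it lies at chr8:121084627-121084727 on the plus strand for Foxf1 and at chr13:31626464-31626564 on the plus strand for Foxf2, in exon 1 of each.
Foxf1: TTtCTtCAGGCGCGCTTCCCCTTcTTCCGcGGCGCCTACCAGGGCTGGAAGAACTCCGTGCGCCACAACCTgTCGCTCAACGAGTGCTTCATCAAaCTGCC
Foxf2: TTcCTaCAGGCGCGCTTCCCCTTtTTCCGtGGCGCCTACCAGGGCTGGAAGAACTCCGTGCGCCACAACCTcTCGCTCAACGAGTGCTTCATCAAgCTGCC

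The stretch of the homeobox spans 123 bases, of which 85 (69.1%) were identical in Nkx2-3 and Nkx3-2. It lies at chr19:43614450-43614572 on the plus strand for Nkx2-3 and at chr5:41761845-41761967 on the minus strand for Nkx3-2, in exon 2 of each.
Nkx2-3: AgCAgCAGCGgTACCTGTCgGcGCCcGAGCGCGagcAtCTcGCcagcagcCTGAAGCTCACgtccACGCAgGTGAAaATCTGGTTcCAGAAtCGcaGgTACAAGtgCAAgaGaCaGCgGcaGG
Nkx3-2: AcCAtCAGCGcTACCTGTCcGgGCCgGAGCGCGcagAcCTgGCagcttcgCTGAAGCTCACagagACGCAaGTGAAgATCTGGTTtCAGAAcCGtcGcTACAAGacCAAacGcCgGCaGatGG

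The share of identical bases was higher in the forkhead stretch than in the homeobox stretch. The forkhead stretch lies around the longest identical run of its own pair, and the homeobox stretch does not. These shares therefore depend on how the stretches were placed, and they do not rank the pairs by closeness. The share for Nkx2-3 and Nkx2-5 was not measured. Over whole transcripts, the longest run of identical bases in any of the 28 pairs of members was 41 bases, between Foxf1 and Foxf2. The next was 30 bases, between Foxf1 and Foxl1, and Nkx2-3 and Nkx2-5 shared at most 23. Each of these runs is shorter than the 99 bases by which effective length falls short of length in the tables. Barx1 and Tcf21 shared no run longer than 15 bases with another member, on either strand.

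The libraries held 42040766 expected counts in replicate 1 and 41480301 in replicate 2, of which spike-ins took 1.81% and 1.74%. Levels are in TPM, a measure scaled to library size and divided by transcript length, so that genes can be compared. A gene counted as detected where both libraries had 1 TPM or more. By this rule 13311 of 21474 protein-coding genes (62.0%) and 6 of the 8 members were detected. The counts of detected list genes given below stand against this 62.0%. The median protein-coding gene stood at 4.46 TPM, and the median of the 8 members was 7.70 TPM. The labelled tissue was checked against its markers, with 8 of 8 epithelial genes detected at a median of 568 TPM, 10 of 10 smooth muscle genes at a median of 161 TPM and 12 of 12 mesenchyme genes at a median of 280.2 TPM. Intervals given below are exact Poisson 95% intervals, which cover only the error of counting and treat each read as an independent molecule. Reads that carry no molecular identifier are not independent molecules, so the intervals may be too narrow.

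Tcf21, Foxf1 and Nkx2-3 made up nearly all of the summed level of the 8 factors, and the genes known from the stomach and pylorus were close to or below detection. The 8 factors summed to 269 TPM in replicate 1 and 261 TPM in replicate 2. Tcf21, Foxf1 and Nkx2-3 took 93.4% and 93.7% of that sum (93.6% ± 0.216, SD, n = 2). The 4 factors of the intestine took 54.4% ± 1.78, Tcf21 alone took 45.0% ± 1.83 (29.5% in counts not divided by length), and Barx1, Nkx3-2 and Nkx2-5 together took 0.606% ± 0.0532. Whole intestine is a mixture, so fewer cells of a type and less RNA per cell cannot be told apart in any of these levels.

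**Figure D1:**
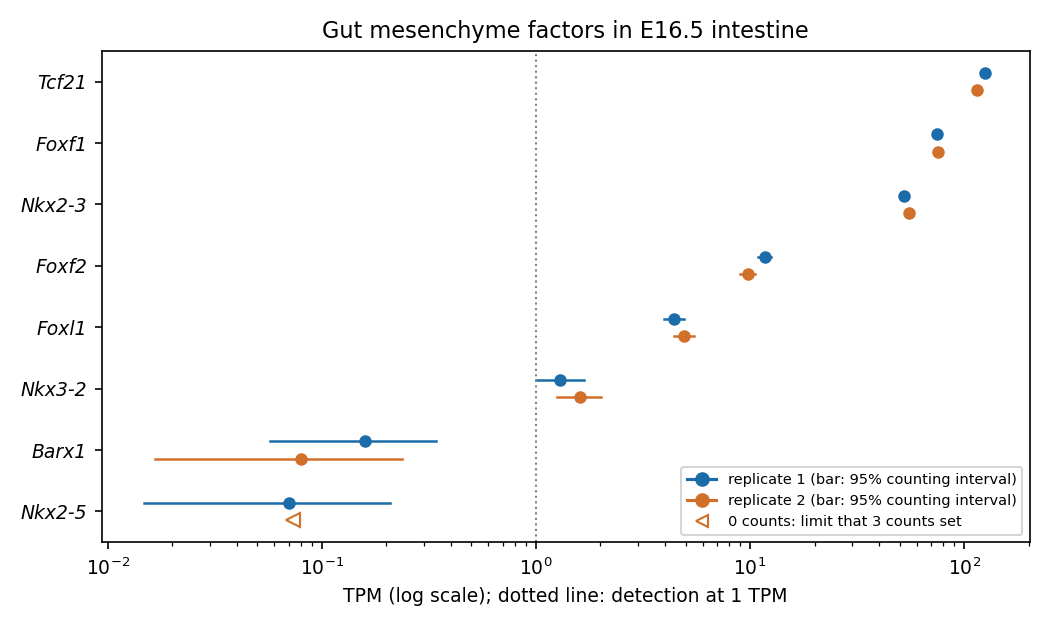
TPM of each of the 8 factors on a log axis, with replicate 1 above replicate 2 for each gene, bars for the 95% counting interval and a triangle for the limit that 3 counts set where replicate 2 had 0 counts. Tcf21, Foxf1 and Nkx2-3 lie above 50 TPM, Foxf2, Foxl1 and Nkx3-2 lie between 1 and 12 TPM, and Barx1 and Nkx2-5 lie below 0.2 TPM in both libraries.

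Foxf1 (ENSMUSG00000042812.5; chromosome 8, 121084386 to 121088144, plus strand, 2 exons), which maintains the mesenchyme around the gut tube, had 74.3 TPM in replicate 1 and 75.3 TPM in replicate 2 (74.8 ± 0.721, SD, n = 2). These levels rest on 5062 and 4983 counts, and their counting intervals, 72.3 to 76.4 and 73.2 to 77.4 TPM, overlap. Foxf1 ranked 2207th of the protein-coding genes, with 89.7% of them lower. The pools were almost level for this gene.

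Foxf2 (ENSMUSG00000038402.2; chromosome 13, 31625816 to 31631403, plus strand, 2 exons), the close relative of Foxf1, had 11.7 TPM in replicate 1 and 9.74 TPM in replicate 2 (10.7 ± 1.39), from 780 and 630 counts. The counting intervals, 10.9 to 12.6 and 8.99 to 10.5 TPM, do not overlap, replicate 1 being the higher. How many other genes had intervals apart in this way was not counted. The pools were 1.19-fold apart for Foxf2, below the 90th percentile of 1.24 for protein-coding genes of 10 to 30 TPM. Foxf1 exceeded Foxf2 by 6.34-fold in replicate 1 and 7.73-fold in replicate 2, and by 6.96-fold on the pooled counts per length, with an interval of 6.59 to 7.37.

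Foxl1 (ENSMUSG00000097084.1; chromosome 8, 121127940 to 121130644, plus strand, 1 exon) had 4.43 TPM in replicate 1 and 4.92 TPM in replicate 2 (4.67 ± 0.346), from 340 and 366 counts. Its intervals, 3.98 to 4.93 and 4.42 to 5.45 TPM, overlap. It stood near the middle of the protein-coding genes, with 50.5% of them lower, and Foxf1 exceeded it by 16.8-fold and 15.3-fold. All 6 other markers listed for Foxl1-positive subepithelial cells were detected, against 62.0% of all protein-coding genes. Pdgfra was also counted above among the mesenchyme genes, so the list is not particular to these cells. The 6 markers were the tissue factor gene F3 at 23.1 and 20.6 TPM, the PDGF receptor Pdgfra at 21.5 and 23.4 TPM, the ligand Bmp7 at 16.7 and 21.1 TPM, Wnt5a at 15.1 and 13.7 TPM, Bmp5 at 6.16 and 6.63 TPM and the neuregulin Nrg1 at 4.36 and 3.89 TPM. Foxl1 thus had a level between those of Nrg1 and Bmp5.

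Nkx2-3 (ENSMUSG00000044220.13; chromosome 19, 43612325 to 43615892, plus strand, 2 exons), which is needed for the villi and for the vessels of gut lymphoid tissue in mice, had 52.4 TPM in replicate 1 and 55.1 TPM in replicate 2 (53.7 ± 1.92). The counts were 3102 and 3169, with overlapping intervals of 50.5 to 54.3 and 53.2 to 57.1 TPM, and 86.0% of protein-coding genes were lower. It was the leading Nkx gene of the tissue. Madcam1, the vascular adhesion receptor described as depending on Nkx2-3, was detected at 22.4 and 20.0 TPM.

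Tcf21 (ENSMUSG00000045680.7; chromosome 10, 22817281 to 22820174, minus strand, 2 exons) was the highest of the 8 factors, with 125 TPM in replicate 1 and 114 TPM in replicate 2 (119.4 ± 7.44). These rest on 4122 and 3665 counts, the intervals of 121 to 129 and 110.5 to 118 TPM do not overlap, and 93.5% of protein-coding genes were lower. As for Foxf2, the share of other genes with intervals apart was not counted. Tcf21 was 1.08-fold apart between the pools, between the median of 1.07 and the 90th percentile of 1.175 for genes of 100 to 300 TPM. Its first place holds per length, and it rests on the transcript length used. Its annotated length in the tables is 1223 bases against 2415 for Foxf1, and Foxf1 had more reads in both libraries. The relatives of Tcf21 lay far below it, with Msc at 2.36 and 2.03 TPM, Tcf15 at 5.59 and 6.44 TPM and Tcf23 at 2.81 and 3.59 TPM, and Tcf21 exceeded the nearest of them, Tcf15, by 22.3-fold and 17.7-fold.

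Nkx3-2 (ENSMUSG00000049691.8; chromosome 5, 41761483 to 41764501, minus strand, 2 exons) was the single detected factor of the stomach and pylorus group. It had 1.30 TPM in replicate 1 and 1.60 TPM in replicate 2 (1.45 ± 0.212), from 62 and 74 counts. The interval of replicate 1, 0.998 to 1.67 TPM, reaches just below the detection level, and that of replicate 2 spans 1.26 to 2.01 TPM. Nkx2-3 exceeded Nkx3-2 by 40.3-fold and 34.4-fold, and by 37.1-fold on pooled counts per length (interval 31.3 to 44.3).

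Barx1 (ENSMUSG00000021381.4; chromosome 13, 48662998 to 48666507, plus strand, 4 exons), the defining factor of stomach mesenchyme, had 0.160 TPM in replicate 1 and 0.0800 TPM in replicate 2. That is 6 counts (interval 2.20 to 13.1) and 3 counts (interval 0.619 to 8.77). Nkx3-2 exceeded Barx1 by 12.1-fold on pooled counts per length (interval 6.21 to 27.1), Nkx2-3 by 450-fold (interval 237 to 984) and Foxf1 by 627-fold (interval 329.9 to 1371). Barx1 was therefore below detection in both libraries but was not at 0.

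Nkx2-5 (ENSMUSG00000015579.4; chromosome 17, 26838664 to 26845009, minus strand, 2 exons) had 3 counts in replicate 1, equal to 0.0700 TPM, and 0 counts in replicate 2, where 3 counts would have given 0.0736 TPM. Both values are at or below the limit that 3 counts set, so no fold between the pools is given. Nkx2-3, with which it shared its longest identical run among the 8 genes, had 6271 counts in the 2 libraries together. The pooled ratio of Nkx2-3 to Nkx2-5 per length was 1481, and its interval of 506.5 to 7182 shows how little 3 counts fix it.

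The order of the 8 levels was Tcf21, Foxf1, Nkx2-3, Foxf2, Foxl1, Nkx3-2, Barx1 and Nkx2-5, and it was the same in both libraries. Neighbours were taken as apart where the log2 ratio of TPM + 0.1 had the same sign in both libraries and its mean exceeded 3 SD. The narrowest steps at the top were that of Tcf21 over Foxf1, at 0.67 ± 0.10 (log2, SD, n = 2), and that of Foxf1 over Nkx2-3, at 0.48 ± 0.04. The widest were that of Nkx3-2 over Barx1, at 2.83 ± 0.57, and that of Nkx2-3 over Foxf2, at 2.32 ± 0.24. The steps of Foxf2 over Foxl1, at 1.18 ± 0.29, and of Foxl1 over Nkx3-2, at 1.63 ± 0.09, lay between them. All 7 neighbouring steps and all 28 pairs passed this rule, but the step of Barx1 over Nkx2-5 was not detectable at this depth, since its pooled ratio of 3.29 has an interval of 0.821 to 18.9. With 2 libraries the smallest exact two-sided sign-flip p is 0.5, and the steps are given without a p-value.

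Foxf1 and Nkx2-3 each held the first place in their family. Foxf1 ranked first of 44 Fox genes, above Foxp1, a broadly expressed forkhead gene, at 64.8 and 64.0 TPM, while Foxf2 ranked 10th and Foxl1 11th. In counts not divided by length, Foxp1 was above Foxf1 in replicate 1 (5171 against 5062) and below it in replicate 2 (4910 against 4983). Of the 44 Fox genes, 21 were detected and 11 were at 0 in both libraries, and Foxf1, Foxf2 and Foxl1 held 28.5% and 28.4% of the summed Fox level. The Nkx family was far more uneven. Of 14 Nkx genes, 3 were detected and 5 were at 0 in both libraries, and Nkx2-3, Nkx3-2 and Nkx2-5 held 94.1% and 96.5% of the summed Nkx level. Nkx3-2 ranked 2nd by mean TPM, at 1.30 and 1.60 TPM. Nkx2-2, a factor of enteroendocrine and other cells, came next at 1.84 and 1.02 TPM and was above Nkx3-2 in replicate 1. Nkx2-5 ranked 8th.

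Foxf1 and Foxl1 lie in the same cluster of forkhead genes, and the level of its genes did not follow their distance from Foxf1. The start of Foxl1 lies 43.55 kb downstream of that of Foxf1. Between them lie Foxc2, a forkhead gene of vessels and paraxial mesoderm, whose start is 31.79 kb from that of Foxf1, and Mthfsd, at 39.1 and 37.9 TPM. Foxc2 had 0.170 and 0.190 TPM (13 and 14 counts), so Foxf1 exceeded it by 437-fold and 396-fold and Foxl1 by 26.1-fold and 25.9-fold. Fendrr, a long noncoding RNA that starts 1276 bases upstream of Foxf1 on the other strand, had 20.4 and 18.8 TPM, and Foxf1 exceeded it by 3.64-fold and 4.00-fold.

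Foxf2 sits in a similar cluster on chromosome 13. Foxq1, a forkhead gene that starts 69.68 kb upstream, had 1.61 and 2.40 TPM. Foxc1, whose start lies 180.82 kb downstream, had 0.0900 and 0.0800 TPM (10 and 9 counts), and Foxf2 exceeded it by 130.1-fold and 122-fold. Thus a Foxf gene was detected and the Foxc gene beside it was not, in both clusters. Gmds, an enzyme of fucose synthesis on the far side of Foxc1, had 183 and 175 TPM, above every member.

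**Figure D2:**
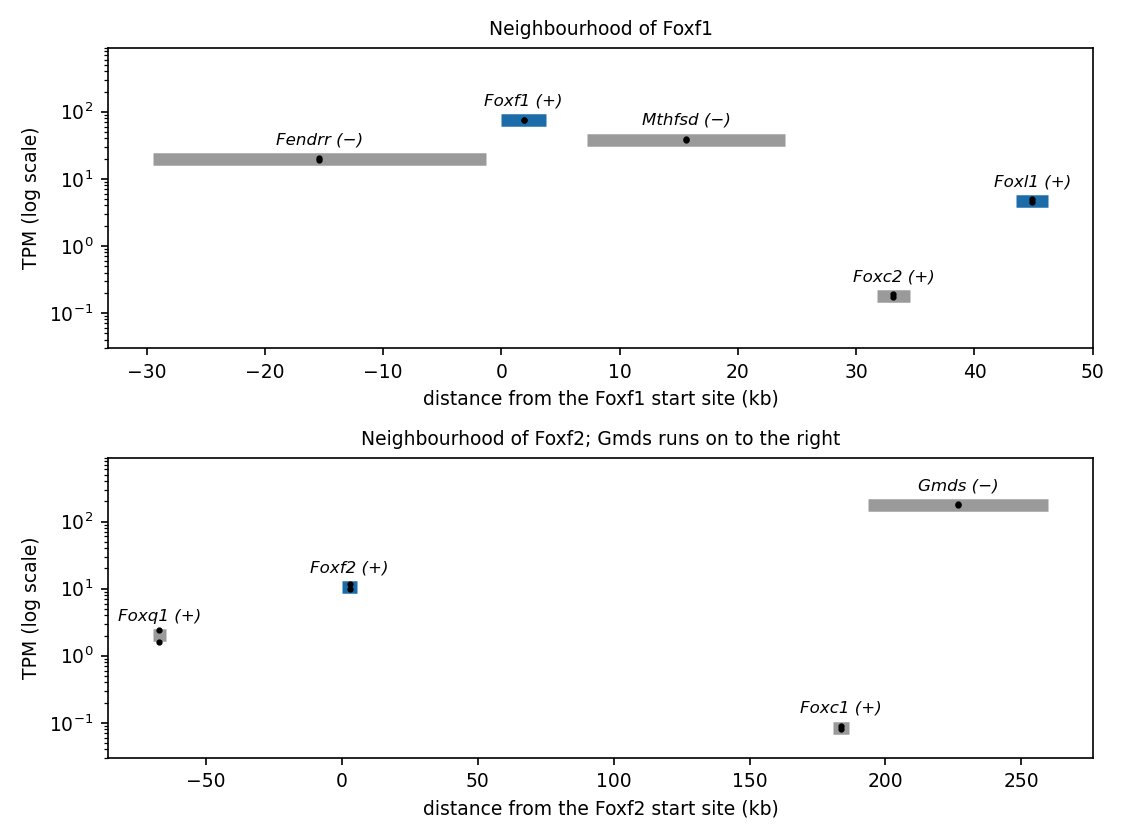
TPM on a log axis against distance in kb from the start site of Foxf1 (upper panel) and of Foxf2 (lower panel), with members as blue bars, other genes as grey bars, the strand in brackets and black points for the 2 libraries. Foxc2 at 0.170 and 0.190 TPM and Foxc1 at 0.0900 and 0.0800 TPM lie far below the Foxf genes beside them.

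Each member had a single transcript in the transcript tables, so no share between isoforms enters these levels, but the length of that transcript does. GENCODE M21 adds a further transcript for Tcf21 (1788 bases) and for Nkx2-5 (1357 bases). It gives the annotated Tcf21 transcript a newer version of 1267 bases, against the 1223 bases used here. A greater length would lower the TPM of Tcf21, and its level and rank at those lengths were not measured. No exon of a member overlapped an exon of another gene on either strand, apart from the microRNA genes Gm27530 in Foxf1 and Gm27516 in Foxf2, both at 0 counts. A readthrough gene, Gm20388, with 686 and 713 counts, spans Foxf1 and Foxl1 without sharing an exon with either. The labels used here do not state whether strand was kept in the libraries.

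None of the 6 members that averaged 1 TPM or more differed by 1.5-fold or more between the pools, against 520 of 13509 protein-coding genes (3.85%) at that level. Ratios were taken as replicate 1 over replicate 2 and divided by the median ratio of these genes, a shift of 0.01 on the log2 scale. Tcf21 and Foxf2 were higher in replicate 1, by 1.08-fold and 1.19-fold. Foxf1, Nkx2-3, Foxl1 and Nkx3-2 were lower in replicate 1, at ratios of 0.976, 0.941, 0.893 and 0.815. No direction flipped under the alternative scalings.

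The members' distance between the pools was like that of other genes of their level. Their median was 1.10-fold apart, against 1.085-fold for all genes compared. Foxf2, at 1.19-fold, lay between the median of 1.08 and the 90th percentile of 1.24 for genes of 10 to 30 TPM. Nkx3-2, the farthest apart, lay between the median of 1.15 and the 90th percentile of 1.54 for genes of 1 to 3 TPM. With 1 library on each side there is no test of these ratios.

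**Figure D3:**
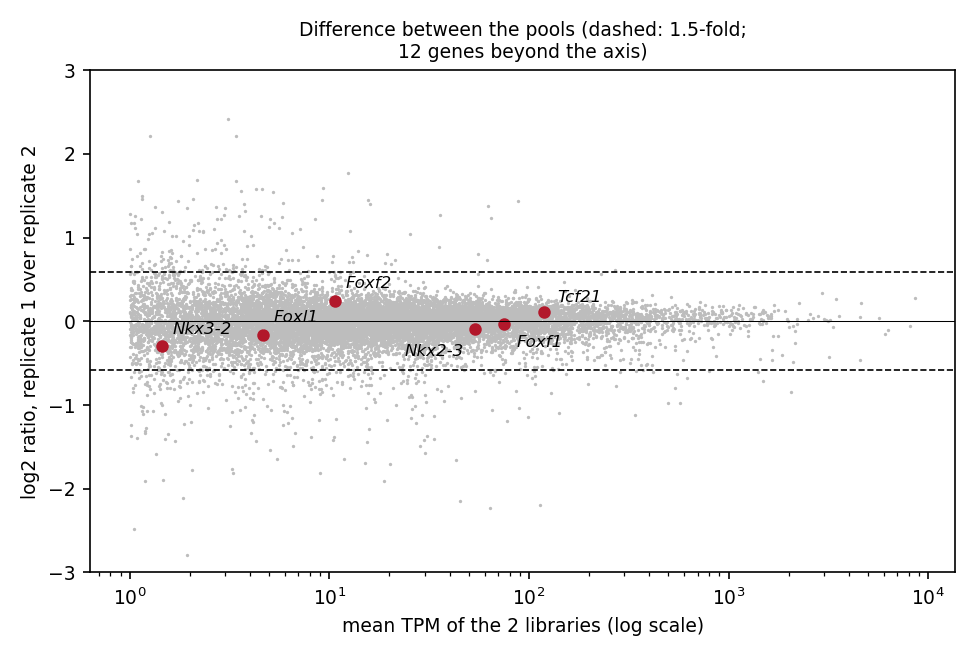
Log2 ratio of TPM, replicate 1 over replicate 2, divided by the median ratio, against mean TPM on a log axis, for protein-coding genes that averaged 1 TPM or more (grey) and the 6 members among them (red), with dashed lines at 1.5-fold. All 6 members lie inside the dashed lines, and 12 genes lie beyond the axis.

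Genes of the hedgehog pathway, which acts on Foxf1, Foxf2 and Foxl1, lay below Foxf1 and Nkx2-3. Of 14 hedgehog genes, 13 were detected, and all 14 together had a median of 7.197 TPM. The co-receptor Gas1 had 18.8 and 27.2 TPM, the ligand Ihh 21.6 and 23.8 TPM and the inhibitor Hhip 18.0 and 19.0 TPM. The lowest was the ligand Dhh at 0.890 and 1.56 TPM, which was also the only gene of the list past 1.5-fold between the pools (ratio 0.590). Foxf1 exceeded Ihh by 3.44-fold and 3.16-fold. Picked outside the naming rule and with their values known, the hedgehog targets Ptch1 and Gli1 had 16.2 and 17.7 TPM and 6.08 and 5.22 TPM. Foxf1 and Nkx2-3 lay above both, Foxf2 lay between them and Foxl1 lay below both. In replicate 2 the counting interval of Foxl1, 4.42 to 5.45 TPM, includes the level of Gli1.

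Genes described as lying downstream of the 8 factors were all detected, 7 of 7, against 62.0% of all protein-coding genes. None of these 7, and none of the 6 markers of Foxl1-positive cells, differed by 1.5-fold between the pools. The share past this fold was 3.85% of protein-coding genes that averaged 1 TPM or more. The Wnt inhibitors Sfrp1 and Sfrp2, which Barx1 raises in stomach mesenchyme, had 45.5 and 41.7 TPM and 50.3 and 48.0 TPM, although Barx1 itself had 6 and 3 counts. Bmp4, described downstream of Foxf genes, led this list at 57.1 and 51.4 TPM, close to Nkx2-3. The ligands Bmp2, at 10.4 and 12.2 TPM, and Wnt5a, at 15.1 and 13.7 TPM, were nearest to Foxf2, and Wnt11, at 1.53 and 1.68 TPM, was at that of Nkx3-2.

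Of 12 BMP ligands, receptors and inhibitors, 11 were detected, and all 12 together had a median of 5.02 TPM. After Bmp4 the highest were Bmp7 and the receptor Bmpr1a, at 9.41 and 13.2 TPM, and the lowest was the receptor Bmpr1b, at 0.95 and 0.60 TPM. None of the 11 genes compared was past 1.5-fold between the pools.

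The stomach and pyloric members were set beside the other factors of those regions. Nkx2-5 and Nkx3-2 act in the pylorus together with Sox9, Gata3, Isl1, Six2 and the BMP inhibitor Grem1. Of these 5, 4 were detected, against 62.0% of all protein-coding genes. Which cells of the pools expressed them was not tested. Sox9, which the intestinal epithelium also expresses, had 21.8 and 22.6 TPM, Grem1 had 7.55 and 6.17 TPM, Isl1 had 5.71 and 4.18 TPM and Gata3 had 1.68 and 1.77 TPM. Six2 had 0.12 and 0.10 TPM, at the level of Barx1. Of the factors that act with Nkx3-2 and Nkx2-3 in the splenic anlage, Nr2f2 had 13.2 and 11.7 TPM, and Wt1, also a mesothelial marker, had 6.93 and 8.52 TPM. The defining gene of the spleen, Tlx1, had 0.10 and 0.05 TPM.

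Markers of neighbouring organs were counted because several members are also known from those organs. Of 16 stomach epithelium genes, 3 were detected, and the list summed to 14.3 and 12.7 TPM. The trefoil factor Tff2 led at 4.42 and 6.13 TPM, followed by Tff1 at 3.68 and 2.03 TPM, which was past 1.5-fold (ratio 1.76), and the acid pump subunit Atp4a at 1.89 and 1.26 TPM. The mucin Muc5ac and Cblif, the gene of intrinsic factor, were at 0. Of 6 squamous forestomach and oesophagus genes 2 were detected, with a sum of 11.7 and 8.82 TPM. Krt14 had 6.24 and 6.76 TPM, Krt15 had 3.86 and 1.89 TPM (ratio 1.97), and Krt4, Krt5, Krt13 and Trp63 lay below 1 TPM. Krt4 had 52 and 2 counts, Krt5 18 and 7, Krt13 8 and 0 and Trp63 11 and 2, each higher in replicate 1. How much Nkx3-2 and Barx1 owe to stomach tissue in the pools was not tested.

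Beside Nkx2-5, 4 of 8 heart muscle genes were detected, with a sum of 104 and 91.7 TPM. Myl7 had 75.5 and 64.2 TPM, Tnnt2 had 22.7 and 20.1 TPM, Myl4 had 3.98 and 5.39 TPM and Tnni3 had 1.36 and 1.40 TPM. The other 4 stood below 0.5 TPM in both libraries, with Nppa at 0.440 and 0.180 TPM, Ryr2 at 0.200 and 0.210 TPM, Hcn4 at 0.0900 and 0.120 TPM and Myh6, the defining myosin of the atrium, at 0.0500 and 0.140 TPM. Nkx2-5, at 3 and 0 counts, was at or below the limit that 3 counts set, and the part of heart tissue in its counts was not tested.

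Tcf21 was read beside kidney, lung, mesothelium and adrenal or gonad. None of the 6 lung genes was detected, and Nkx2-1 and Tbx5 were at 0. Of 8 kidney genes, 1 was detected, Podxl, which vessels and mesothelium also express, at 30.9 and 40.4 TPM. The podocyte gene Nphs1 had 1.79 and 0.800 TPM (ratio 2.08), but was less apart in counts, at 129 and 93.9. Pax2 had 0.0200 and 0 TPM. All 5 mesothelial genes were detected, with Upk3b at 57.1 and 61.5 TPM, Msln at 19.0 and 21.5 TPM, Upk1b at 12.0 and 10.8 TPM, Wt1 as above and Lrrn4 at 6.73 and 8.52 TPM. The lists summed to 0.26 and 0.40 TPM for lung, 33.7 and 42.2 TPM for kidney and 102 and 111 TPM for mesothelium. Podxl made up most of the kidney sum, which without it was 2.76 TPM in replicate 1 and 1.76 TPM in replicate 2, a sum added after the values were seen. The part of these organs in the level of Tcf21 was not tested.

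The adrenal and gonad list summed higher in replicate 1, with 55.1 TPM in replicate 1 and 9.07 TPM in replicate 2, and 2 of its 8 genes were detected. Of its 5 genes that averaged 1 TPM or more, 4 were past 1.5-fold and all 4 were higher in replicate 1. The steroid enzyme genes Cyp21a1 at 13.2 and 0.0500 TPM, Hsd3b1 at 13.0 and 0.540 TPM and Cyp11a1 at 19.2 and 5.51 TPM, and the cholesterol carrier Star at 6.26 and 0.570 TPM, were those 4. Insl3 had 2.11 and 2.10 TPM, Nr5a1 had 1.15 and 0.10 TPM, and Cyp17a1 and Amh lay below 0.2 TPM. Tcf21 differed by 1.08-fold between the same pools, and the part of adrenal or gonad tissue in its level was not tested.

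Pancreas genes moved the other way, with a sum of 4935 TPM in replicate 1 and 6464 TPM in replicate 2. All 8 were detected, at a median of 359.5 TPM, above the 280.2 TPM of the mesenchyme list. The digestive enzyme genes Cela2a, at 389 and 759 TPM (ratio 0.508), and Prss2, at 120.5 and 185 TPM (ratio 0.644), were past 1.5-fold and lower in replicate 1. Pnliprp1 had 1975 and 2330 TPM, Ctrb1 had 1610.3 and 2111 TPM, Cel had 325 and 459 TPM, Cpa1 had 306 and 348 TPM, Ins2 had 202 and 263 TPM and the acinar factor Ptf1a had 7.79 and 9.54 TPM. Foxf1, Nkx2-3, Foxl1 and Nkx3-2 were also lower in replicate 1, none of them by 1.5-fold. The part of pancreatic tissue in these differences, and in the level of Tcf21 or any other member, was not tested. Cartilage, where Nkx3-2 also acts, had 0 of 9 genes detected and summed to 2.12 and 2.42 TPM, led by Col9a1 at 1.13 and 0.970 TPM, then Col2a1 at 0.290 and 0.440 TPM and Comp at 0.320 and 0.380 TPM, with Matn1 at 0.

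**Figure D4:**
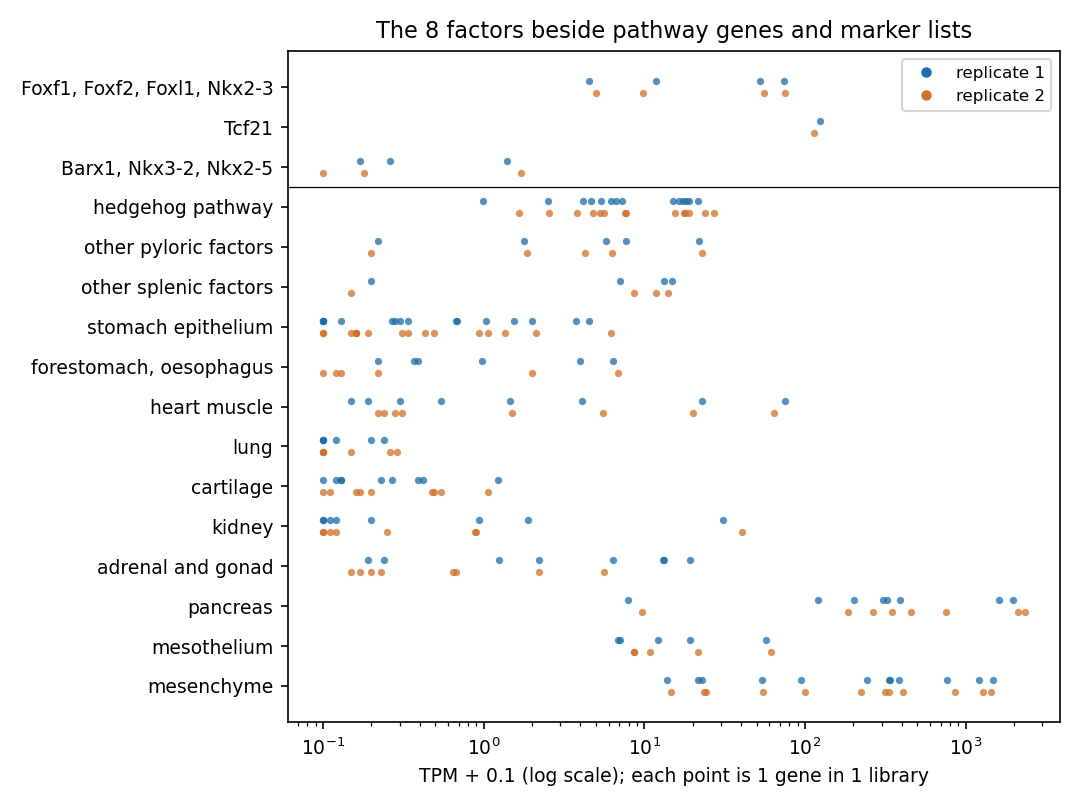
TPM + 0.1 on a log axis for every gene of the 8 factors (top 3 rows, above the line) and of the pathway and marker lists, with replicate 1 in blue above replicate 2 in orange. Barx1 and Nkx2-5 lie among the undetected genes of the stomach, lung and cartilage lists, and Tcf21 at 125 and 114 TPM lies above every hedgehog gene.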

How the data were processed

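Total RNA of whole intestine was sequenced in 2 libraries, each with values by gene and by transcript. Per the file headers and accompanying text, the authors assigned reads to GENCODE M4 transcripts on mm10. The aligner and quantifier are not given in the sources at hand. The deposited values include expected counts, unnormalised estimates that divide shared reads between features. The deposited TPM are counts over effective length, scaled to the same total over all features, and the deposited percent values are isoform shares within a gene. The deposited FPKM values were not used.

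Of 43346 gene identifiers, 42462 (98.0%) matched GENCODE M21, which gave symbols, coordinates and sequences. Unmatched identifiers held 0.157% and 0.152% of counts, and features that name no gene held 0.000147% and 0.000157%. Levels are mean and SD of 2 libraries, and since both biosamples carry a shared donor identifier in the labels, SDs may partly be technical. Ratios between libraries used log2(TPM + 0.1), were centred on the median of protein-coding genes that averaged 1 TPM or more and were called at 1.5-fold. This pseudocount understates the change of low genes. Pooled ratios used counts per effective length with exact 95% intervals, and a limit of 3 counts stood for 0. Alternatives used edgeR 4.0.16 (TMM) and DESeq2 1.42.0 (size factors) in R 4.3.3 on rounded expected counts. Other steps used Python 3.11.15, numpy 2.4.6, pandas 2.3.3, scipy 1.17.1 and matplotlib 3.10.9.

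The members and the gene lists were chosen with earlier results of these data known. Genes named in the text are the members and, beside them, genes of lists of 8 or fewer, the 3 highest and the lowest of longer lists with any past the fold, the cluster genes and the gene of the lists nearest to each member. A few items that these rules take in are not reported here.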

Additional observations from a re-analysis of the deposited data

How the results depend on the processing

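Library-scaled counts without division by length turned the order at the top round: the log2 ratio of Tcf21 to Foxf1 was -0.37 ± 0.10, against 0.67 per length, because the Tcf21 transcript is the shorter. The same setting moved the share of Tcf21, Foxf1 and Nkx2-3 in the summed level of the 8 factors to 91.4%, with Tcf21 at 29.5%, Foxf1 at 38.1%, Nkx2-3 at 23.8%, Foxf2 at 5.34% and Foxl1 at 2.68%. Leaving out each library in turn gave a share of 93.4% to 93.7%, 6 detected members, 7 neighbouring steps in the same order and 120 to 127 detected list genes, against 119 of 184 with both. A detection level of 5 TPM left 4 of the 8 members. The count of members past 1.5-fold between the pools was 0 under the 6 alternatives that kept this fold, with 2.46% to 7.90% of genes called, and 0 were past 2-fold, with 1.24% of genes called. Of the values for single members, 120 were the same under the alternatives, 6 moved (the 5 shares of single genes above and the posterior mean level of Foxf1, 73.3 TPM) and 1 reversed. The 120 include entries from leaving out a library, which say little about stability. With 2 libraries, the level or share in either one always lies within 1 SD of the mean, so those entries could not move. A log2 ratio from 1 library counted as the same unless its sign turned. Depth limits Barx1 and Nkx2-5, whose levels rest on at most 6 counts in a library. No paired analysis was possible because both libraries belong to 1 group.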

Other observations

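Among other transcription factors of gut mesenchyme, Meis1 and Snai2 came nearest to Foxf1 and Nkx2-3. Of 24 listed, 21 were detected, and all 24 together had a median of 11.4 TPM. Meis1, a homeobox cofactor of Hox proteins, had 72.5 and 65.0 TPM, the zinc finger repressor Snai2 had 60.7 and 54.5 TPM and the T-box factor Tbx3 had 28.5 and 34.1 TPM. Meis1 stood just below Foxf1 in replicate 1 and further below it in replicate 2, where Foxf1 had 75.3 TPM. Snai2 lay above Nkx2-3 in replicate 1 and within 1 TPM of it in replicate 2. The lowest was Tbx18 at 0.220 and 0.190 TPM. Zfhx4, at 3.25 and 1.98 TPM, was the only gene of this list past 1.5-fold between the pools (ratio 1.59). It had 883 and 688 counts, which makes it less apart in counts than in TPM.

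Of 12 paralogs of the 8 factors, 4 were detected, all of them below 7 TPM, namely Msc, Tcf15, Tcf23 and Nkx2-2. The close relative of Barx1, Barx2, had 0.220 and 0.0900 TPM, and 5 paralogs were at 0 in both libraries. Nkx2-2 was past 1.5-fold between the pools (ratio 1.71), from 54 and 46 counts, which makes it less apart in counts than in TPM.

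The gene of the lists with the level most like each member, over 2 libraries and 184 candidates, was the myosin Myh11 for Tcf21 (0.15 apart on the log2 scale), the smooth muscle gene Smtn for Foxf1 (0.21), fibronectin Fn1 for Nkx2-3 (0.04), the repressor Zeb1 for Foxf2 (0.08) and the hedgehog co-receptor Cdon for Foxl1 (0.15). For Nkx3-2 it was the heart troponin Tnni3 (0.19), for Barx1 it was the stomach factor Sox2 (0.10) and for Nkx2-5 the squamous factor Trp63 (0.46). With 2 libraries of 1 tissue this likeness is of level alone.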
